A study of Mus musculus with 14 samples.

Results

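Ezh2 is the catalytic subunit of Polycomb repressive complex 2 (PRC2), which methylates lysine 27 of histone H3 and thereby marks genes for silencing. Eed and Suz12 are its obligate partners, Ezh1 is a second methyltransferase that can take the place of Ezh2, and the PRC1 complexes bind the mark or act beside it. In bone marrow-derived macrophages, cells grown from marrow progenitors with the growth factor in L929 cell medium, PRC2 acts on a genome that has already taken on a myeloid pattern of expression.

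The comparison was between macrophages of Ezh2 knockout and wild-type mice that were kept in control medium, and it was described over all expressed genes. It used 7 of the 14 RNA-seq libraries of the series, chosen by their labelled genotype and medium: 3 knockout (KO control 1 to 3) and 4 wild-type (WT control 1 to 4). KO cells came from mice labelled Ezh2fl/fl;LysM-Cre+/-, in which Cre recombinase is made under the lysozyme M promoter in myeloid cells, and WT cells came from littermate controls. Marrow was cultured for 7 to 10 days in DMEM with serum and L929 conditioned medium, and all 7 cultures then stood for 24 hours in complete DMEM. The other 7 libraries came from cells given medium conditioned by Hepa1-6, a mouse liver cancer cell line, for 24 hours (called conditioned medium below), and they entered the fit but not the contrast. The labels give no strain, sex or age, do not say which alleles or Cre the littermates carried, and do not say that each library came from its own mouse. The p-values therefore measure the spread between libraries within the 4 groups of genotype and medium, over all 14, and this spread may be technical.

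Libraries held 41792602 to 54362151 exon counts in KO and 45167883 to 82089492 in WT. WT control 3 and 4 were the deepest (81828817 and 82089492) and stood apart from the other 5 libraries. On the first component of exon usage within genes (57.5% of the variance over 115489 exons) they lay at 0.618 and 0.574, and the other 5 lay between -0.290 and -0.196. No label names a batch, and no KO library lay with them. Results are therefore given with all 4 WT libraries, and many of them again with WT control 1 and 2 alone. Macrophage markers were high in all 7 libraries: Adgre1 (F4/80) ranged from 3278.2 to 3717.3 CPM, the count scaled to library size, and Csf1r (the M-CSF receptor) from 4414.3 to 5414.4 CPM. Adgre1 was higher in every KO library than in any WT library. Lower in every KO library were Cd68 (1013.1 to 1582.4 CPM in WT, 923.5 to 1000.7 CPM in KO) and Itgam (1190.2 to 1266.2 and 1114.7 to 1171.8 CPM). Csf1r, Cd14, Fcgr1 and Mertk overlapped between the genotypes. Defining markers of other cells were near 0, with Cd3e at no more than 0.0175 CPM, Ncr1 at 0 in every library, and S100a8 at no more than 0.894 CPM. In such bulk samples fewer cells of a type and less RNA per cell cannot be told apart. The 4 tested Y-linked genes were read in all 7 libraries and Xist did not pass the filter on low counts.

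The targeted gene came first, as a check of the labels. Ezh2 (chr6:47530139-47595341, minus strand, mm10) stood at 19.8, 21.5, 26.3 and 24.4 CPM in WT control 1 to 4 and at 18.7, 18.8 and 18.2 CPM in KO control 1 to 3. The KO libraries lay just below the WT ones, without overlap. The log2 fold change of -0.31 ± 0.10 (SE) did not pass (adjusted p = 0.0761, edgeR quasi-likelihood test with Benjamini-Hochberg adjustment); a gene passed, or was called, where this value was below 0.05. It passed without WT control 1 (adjusted p = 0.0390) or WT control 2 (0.0473), and against WT control 1 and 2 alone the value was -0.15 (adjusted p = 0.439).

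Within the gene, the difference lay in exons 18 and 19 of 20, which encode part of the catalytic SET domain. They are printed here because their counts mark the KO libraries, and both are wholly coding. Exon 18 spans chr6:47531985-47532065 and exon 19 spans chr6:47531741-47531825 (GENCODE vM21, GRCm38, read on the minus strand), and together they hold 166 bases, which is not a multiple of 3.
Ezh2 exon 18: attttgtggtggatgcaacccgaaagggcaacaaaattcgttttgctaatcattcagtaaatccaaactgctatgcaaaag
Ezh2 exon 19: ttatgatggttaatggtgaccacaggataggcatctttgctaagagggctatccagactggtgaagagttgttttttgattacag
Exon 18 held 43, 46, 67 and 65 counts in WT control 1 to 4, against 6, 10 and 0 in KO control 1 to 3. Exon 19 held 41, 47, 76 and 54 counts in WT, against 3, 10 and 1 in KO. Per base, the pair reached 145.2%, 132.3%, 101.8% and 87.1% of the level of exons 2 to 17 in WT control 1 to 4 (mean 116.6 ± 26.8%, SD, n = 4). In KO control 1 to 3 the pair reached 12.9%, 28.0% and 1.8% (mean 14.2 ± 13.2%, SD, n = 3). Every KO library was below every WT library, KO control 2 kept the most of these exons and KO control 3 almost none. The exons were picked after their counts had been seen, so no test is given.

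**Figure D1:**
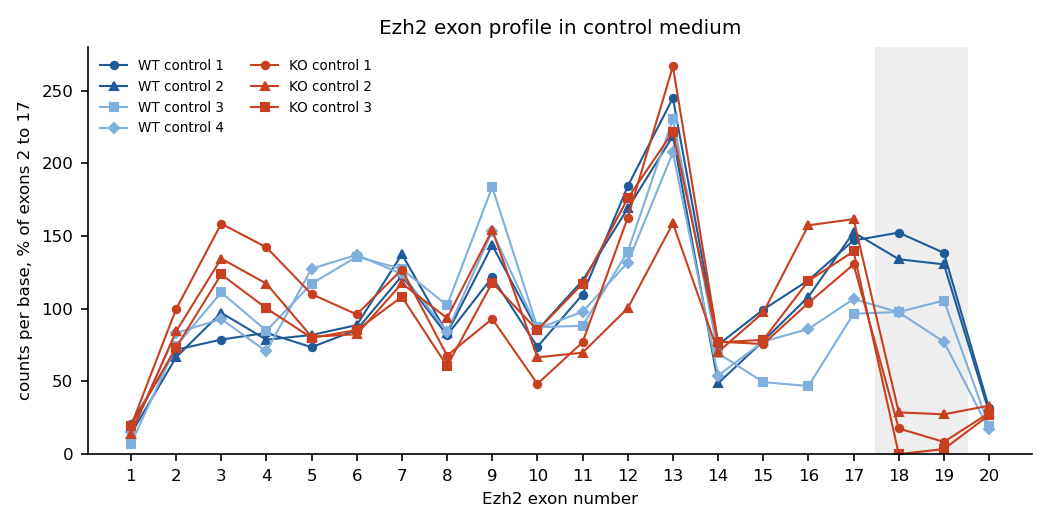
Counts per base of each Ezh2 exon (x axis, exon number) as a percentage of the level over exons 2 to 17 of the same library (y axis), with 1 line per library (blue WT, light blue WT control 3 and 4, red KO). In the grey band, exons 18 and 19, the pair of exons averages 1.8% to 28.0% in the KO libraries and 87.1% to 145.2% in the WT libraries.

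The other Polycomb genes moved little. Of all tested genes 5.32% were called. None of the 6 tested core PRC2 subunits passed in either direction (median log2 fold change -0.08, against 0.001 over all tested genes), and none of the 7 accessory subunits did. Ezh1 stood at 92.1 to 96.8 CPM in WT and 88.2 to 91.1 CPM in KO (-0.08 ± 0.05, adjusted p = 0.324). Eed, which reads the mark and anchors the complex, stood at 50.9 to 58.1 CPM in WT and 47.1 to 53.3 CPM in KO (-0.11 ± 0.07, adjusted p = 0.297). Of 22 PRC1 genes, Cbx6 and Scmh1 were called higher and Rybp lower, and only Cbx6 was also called against WT control 1 and 2 alone. Cbx6, a reader of the mark, rose by 0.68 ± 0.13 on the log2 scale (adjusted p = 0.00947). That call was lost without KO control 3 (adjusted p = 0.0521). None of the 16 histone H3 lysine 27 demethylases and lysine 4 methyltransferases and none of the 15 DNA and H3 lysine 9 methylation enzymes passed.

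Lyz2, the lysozyme M gene in which the LysM-Cre transgene sits, fell in every KO library. Its close copy Lyz1 may share reads with it. Lyz2 stood at 23523.9, 24180.2, 20663.6 and 19194.5 CPM in WT control 1 to 4 and at 10296.6, 10323.8 and 10043.1 CPM in KO control 1 to 3. The KO libraries were tightly grouped at 46.7% of the WT mean, far below the lowest WT library. Lyz2 fell by 1.10 on the log2 scale (SE 0.07, adjusted p = 9.46e-07), and its share of all counts was 2.23% in WT and 1.08% in KO. Against WT control 1 and 2 alone the change was -1.22 (adjusted p = 3.03e-11). Its 4 exons were at 43.2% to 48.3% of the WT level, so the difference ran along the whole gene (chr10:117277331-117282321, minus strand). Genes near the 2 loci were looked at for comparison: within 10 Mb of Ezh2, 5 of 98 tested genes (5.1%) were called both ways, that is, with all WT libraries and again with WT control 1 and 2 alone, among them Krba1, and within 10 Mb of Lyz2 it was 1 of 71 (1.41%), beside 2.58% of all tested genes.

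Across the genome the number of called genes depended on the test, and most of the calls described here were under 2-fold. With the same libraries DESeq2 called 708 genes higher and 793 lower in KO, and limma-voom 2436 and 2321. In the edgeR fit used here, 708 of 13311 tested genes passed an adjusted p of 0.05 (5.32%). Of these, 375 were higher (2.82%) and 333 lower (2.50%) in KO. Increases were the larger: 78 of the 375 and 19 of the 333 reached 2-fold, and the median log2 fold change was 0.53 among the higher and -0.32 among the lower genes. With libraries scaled by their totals alone, 605 genes were called higher and 182 lower, and the median of all genes moved by 0.05. Against WT control 1 and 2 alone 514 of 13345 tested genes passed (3.85%). All 708 kept their sign there, and 344 of them were also called (2.58% of tested genes), 195 of them higher (1.46%) and 149 lower (1.12%). The KO and WT libraries did not overlap for 698 of the 708 genes, beside 21.8% of all tested genes. For such genes the sign against part of the same WT libraries was largely fixed beforehand, so the kept signs lend no support.

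Single libraries moved these counts. Higher and lower calls numbered 157 and 125 without KO control 1, 139 and 85 without KO control 2, and 159 and 85 without KO control 3. They numbered 839 and 930 without WT control 2, 166 and 119 without WT control 3, and 199 and 131 without WT control 4. Without conditioned-medium library KO CM 1, 219 genes were called lower. In all 14 such fits 157 genes were called (1.18%), 101 higher (0.759%) and 56 lower (0.421%), and a gene is said to hold below where it belongs to them. When each gene was read from its most-counted exon alone, 268 of the 708 were still called. Among genes that are named here with a call, those that did not pass there include Kif18b, Klhl3, Arhgef39, Notch4, Tacc2, Ass1, Cdc20, Kif20a, Tk1, Cdkn2c, Cdkn1a, Cdkn1c, Rps16, Cd74, Ctss, Psap, Lamp1, Ctsk, Cyp51, Msmo1, Mmp13, Mmp27, Me1, Csf2ra, Igf2bp2, Kit, Cd34, Rybp, Scmh1, Slfn4, Abhd6, Srpk3, Mpeg1, Atf4, Aars and Ddx3y. With WT control 3 and 4 left out as well, leaving out WT control 1 gave the fewest calls, 91 higher and 51 lower.

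**Figure D2:**
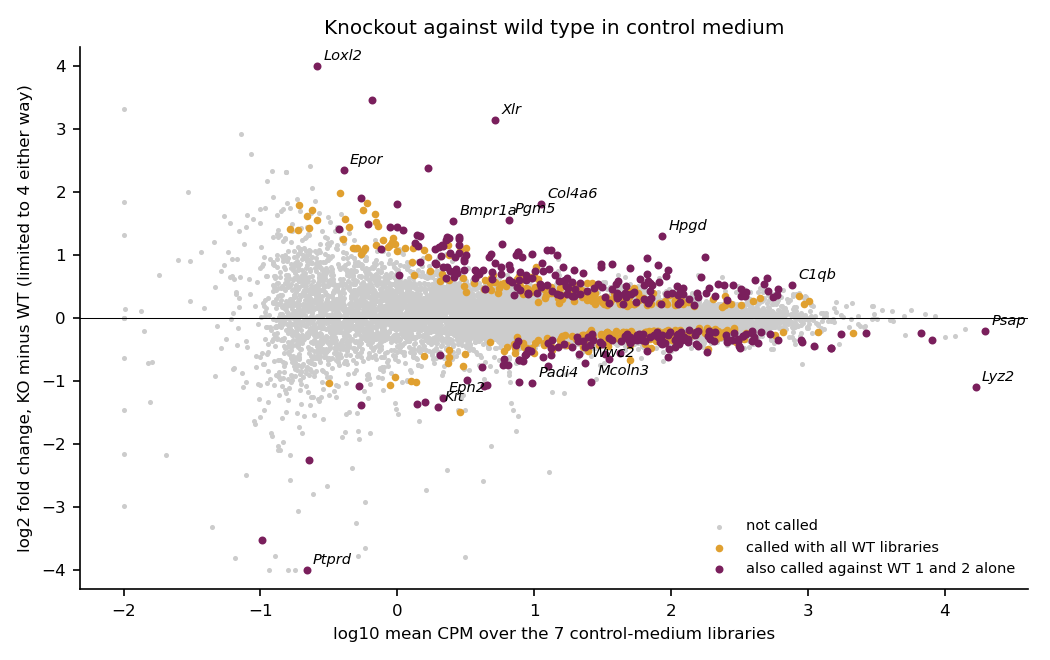
Log2 fold change of KO against WT (y axis, limited to 4 either way) against the log10 mean CPM of the 7 libraries (x axis), 1 point per tested gene. Purple genes were called with all WT libraries and with WT control 1 and 2 alone; the widest changes lie among genes of low level, and Lyz2 lies far below 0 among those of high level.

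Higher and lower calls were counted by the level of the genes, as the mean CPM per kilobase over the 7 libraries. In the lowest quartile (up to 1.46 CPM per kb) 58 genes were called higher both ways and 14 lower. In the second the counts were 46 and 27, in the third 39 and 46, and in the highest 52 and 62. With quartiles of the WT level, the counts were 68 and 12 in the lowest and 47 and 66 in the highest. The WT level is 1 side of the fold change, and the filter on low counts passes a gene that is high in 1 group only, so these counts are a description.

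Among genes of at least 2 CPM called both ways, the largest increase was that of Xlr, an X-linked lymphocyte-regulated gene of a family with near-identical copies, so reads may be shared among them (chrX:53777118-53797706). Xlr stood at 0.760, 0.998, 1.32 and 1.61 CPM in WT control 1 to 4 and 11.1, 9.07 and 11.7 CPM in KO control 1 to 3. The lowest KO library was several times above the highest WT library (log2 fold change 3.14 ± 0.23, adjusted p = 3.21e-06; 3.59 against WT control 1 and 2 alone). Col4a6, which encodes a type IV collagen chain of basement membranes (chrX:141165403-141474076), stood at 6.06, 4.70, 5.89 and 5.02 CPM in WT and 17.9, 20.9 and 18.2 CPM in KO. Its groups were far apart and its replicates close (1.81 ± 0.12, adjusted p = 9.46e-07).

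Pgm5, a phosphoglucomutase-like protein of cell adhesion sites (chr19:24683016-24861855), stood at 3.43, 3.23, 3.10 and 4.44 CPM in WT and 10.2, 10.5 and 10.8 CPM in KO (1.56 ± 0.16, adjusted p = 5.91e-05). Bmpr1a, a type I receptor for bone morphogenetic proteins (chr14:34410734-34503341), stood at 1.52, 1.10, 1.80 and 1.20 CPM in WT and 4.67, 3.38 and 4.21 CPM in KO (1.54 ± 0.18, adjusted p = 0.000170). Hpgd, the enzyme that inactivates prostaglandin E2 (chr8:56294585-56321043), stood at 57.1, 57.3, 52.6 and 45.4 CPM in WT and 143.6, 137.7 and 109.6 CPM in KO (1.30 ± 0.15, adjusted p = 0.000170). In each of these 3 genes every KO library was well above every WT library. The next increases were in Krba1 (1.29), the mitotic kinesin Kif18b (1.28), Klhl3 (1.27), a substrate adaptor of a cullin ubiquitin ligase, Arhgef39 (1.24), the actin regulator Eps8l1 (1.17), the lectin Clec1a (1.17) and the receptor Notch4 (1.15). All 12 held with each library left out, with adjusted p of at most 0.0277 in those fits. Kif18b, Klhl3, Arhgef39 and Notch4 did not pass when only the most-counted exon of a gene was used (adjusted p = 0.154, 0.0561, 0.0958 and 0.130).

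**Figure D3:**
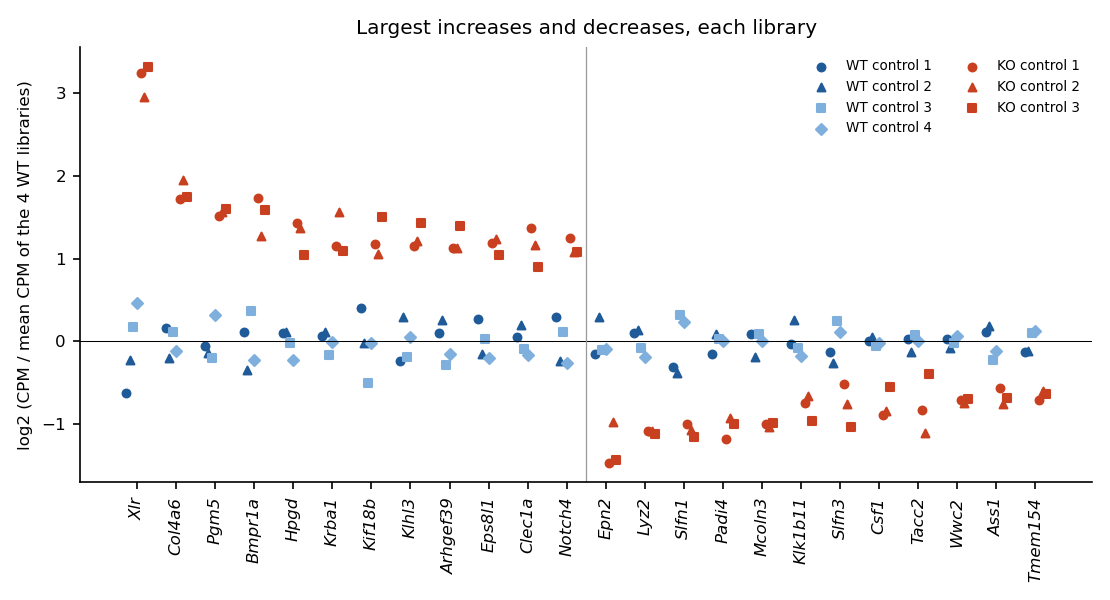
Log2 ratio of each library's CPM to the mean of the 4 WT libraries (y axis) for the 12 largest increases (left) and 12 largest decreases (right). Red KO points do not overlap blue WT points in any of the 24 genes, which the choice of genes required.

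The largest decreases were smaller. Epn2, an endocytic adaptor of the epsin family (chr11:61517249-61579687), stood at 2.58, 3.52, 2.68 and 2.69 CPM in WT and 1.04, 1.46 and 1.06 CPM in KO (-1.27 ± 0.22, adjusted p = 0.00436). Padi4, which converts arginine in proteins, histones among them, to citrulline (chr4:140745865-140774236), stood at 11.2, 13.2, 12.7 and 12.4 CPM in WT and 5.47, 6.52 and 6.18 CPM in KO (-1.03 ± 0.09, adjusted p = 1.06e-05). Mcoln3, a cation channel of endosomes and lysosomes (chr3:146117450-146141806), stood at 35.3, 29.3, 35.3 and 33.3 CPM in WT and 16.7, 16.2 and 16.8 CPM in KO (-1.01 ± 0.09, adjusted p = 1.85e-05). Padi4 and Mcoln3 each fell to about the same low level in all 3 KO libraries, and the spread within either group was small beside the gap.

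Csf1, the growth factor of macrophages that these cultures also received from L929 medium, stood at 7.17, 7.43, 6.89 and 7.06 CPM in WT and 3.86, 3.98 and 4.89 CPM in KO (-0.75 ± 0.10, adjusted p = 0.000487). Wwc2, a scaffold of Hippo signaling, stood at 26.8 to 29.6 CPM in WT and 16.9 to 17.4 CPM in KO (-0.72 ± 0.07, adjusted p = 5.91e-05). Both held with each library left out, as did Epn2, Padi4, Mcoln3, Tmem154 (-0.65), Klk1b11 (-0.77) and Ass1 (-0.66), which makes argininosuccinate. Klk1b11 and Ass1 have near copies that may share reads, and with the most-counted exon alone Ass1 did not pass (adjusted p = 0.412). Tacc2 (-0.75) did not pass without KO control 1 (adjusted p = 0.0630) or KO control 2 (0.0750). The Schlafen genes Slfn1 (-1.08) and Slfn3 (-0.76), members of a family of close paralogs, were highest in WT control 3 and 4, at 6.89 and 6.51 CPM for Slfn1 against 4.45 and 4.23 CPM in WT control 1 and 2. Slfn1 did not pass without any 1 of the 3 KO libraries or WT control 3 or 4 (adjusted p up to 0.122), and Slfn3 did not without KO control 2, KO control 3 or WT control 3 (up to 0.0893).

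In the cell division list the called genes were all higher. Of 38 tested mitosis and spindle genes, 19 were called higher and none lower, beside 2.82% higher over all tested genes; 16 of the 19 were also called against WT control 1 and 2 alone. The median log2 fold change of the list was 0.46 (0.50 against WT control 1 and 2 alone) beside 0.001 for all genes, and 34 of 38 values were above 0. The other 19 members did not pass, and Kif23, a kinesin of the midzone picked after its values were seen, overlapped between the groups at 38.7 to 43.9 CPM in WT and 39.1 to 42.3 CPM in KO. The summed level of the list was 486.7, 460.1, 465.5 and 527.6 CPM in WT control 1 to 4 and 641.7, 598.7 and 672.9 CPM in KO control 1 to 3. Every KO library was above every WT library, by a margin as wide as the spread within WT.

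Cdc20, the activator of the anaphase-promoting complex, stood at 5.84, 5.36, 4.65 and 5.28 CPM in WT and 10.2, 11.1 and 11.3 CPM in KO (1.04 ± 0.12, adjusted p = 0.000130). Ccnb2, a mitotic cyclin, stood at 9.49, 9.65, 6.63 and 8.15 CPM in WT and 16.8, 17 and 20.0 CPM in KO (1.09 ± 0.15, adjusted p = 0.00122). Kif2c, a kinesin that takes microtubules apart at kinetochores, stood at 4.19 to 5.92 CPM in WT and 10.0 to 10.6 CPM in KO (1.01 ± 0.12, adjusted p = 0.000313). These genes were at about 2-fold in KO, with close replicates and no overlap. Kif20a, a kinesin of the late spindle, rose by 0.76 ± 0.10 (adjusted p = 0.000777). Of the 19 genes 10 held with each library left out. The count was 10 without KO control 1, 11 without KO control 3 and 11 without WT control 3. From the control-medium libraries alone 11 were called, and with the most-counted exon alone 9 were, and Cdc20 and Kif20a were not among them (adjusted p = 0.0786 and 0.0873).

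**Figure D4:**
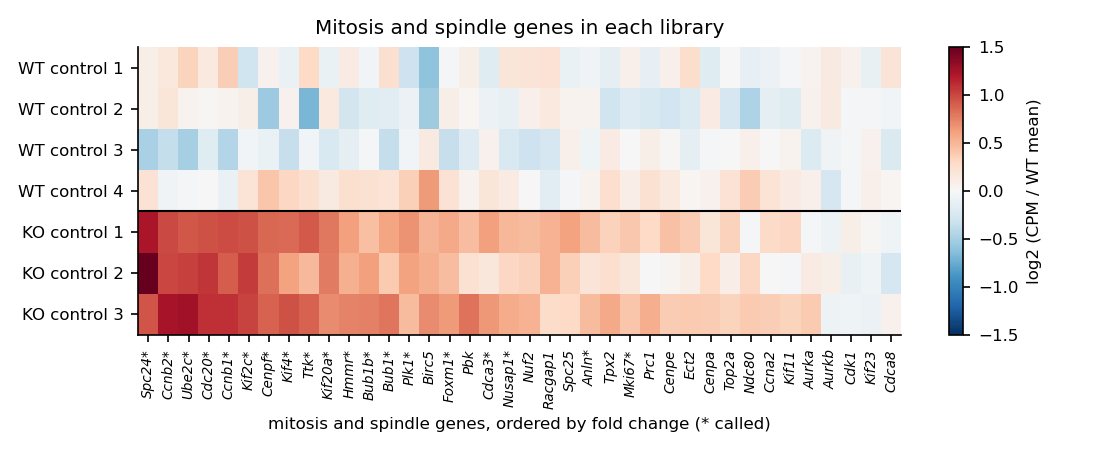
Each of the 38 mitosis and spindle genes (columns, ordered by fold change) in each library (rows) as the log2 ratio to the WT mean, colours limited to 1.5 either way. The 3 KO rows are red over most columns, and asterisks mark the 19 called genes.

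Many mitotic genes are known to share the promoter motifs CCAAT and TTTGAA, which are shown here for 2 of the members named above. Each line is the 250 bases before the RefSeq start (GRCm38.p6), 5′ to 3′ on the gene's strand, with these motifs, or their reverse complements ATTGG and TTCAAA, in capitals; none of the marked matches overlap. The Cdc20 window is chr4:118437344-118437593 and the Ccnb2 window chr9:70421555-70421804, both on the minus strand. Both windows hold both motifs, while that of Kif2c, also named above, holds TTTGAA but not CCAAT.
Cdc20 promoter: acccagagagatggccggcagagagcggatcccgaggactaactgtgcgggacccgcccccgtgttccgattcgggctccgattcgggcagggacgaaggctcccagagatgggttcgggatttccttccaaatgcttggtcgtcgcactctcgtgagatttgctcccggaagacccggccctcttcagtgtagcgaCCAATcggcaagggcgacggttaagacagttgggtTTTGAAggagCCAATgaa
Ccnb2 promoter: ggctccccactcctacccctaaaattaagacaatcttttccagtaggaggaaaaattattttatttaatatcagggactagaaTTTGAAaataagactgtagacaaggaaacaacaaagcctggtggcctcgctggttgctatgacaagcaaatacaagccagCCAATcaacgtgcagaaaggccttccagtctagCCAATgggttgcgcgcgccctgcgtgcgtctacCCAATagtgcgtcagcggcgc
CCAAT, on either strand, was in 80.6% of the 31 list promoters that matched the RefSeq table and in 37.0% of the 10448 matched promoters of tested genes. TTTGAA was in 29.0% and 11% of them. In the table's full window of 300 bases, 50 of them after the start, TTTGAA was in 80.6% of the list and 12.3% of the tested genes. The shares describe the list as a whole: among its 16 matched members that were called, 81.2% held CCAAT. Over the genes called higher both ways without this list, 36.4% held CCAAT, close to the share of all tested genes.

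Other cell cycle genes did not follow the mitotic ones in number. Of 40 DNA replication and S phase genes only Tk1, thymidine kinase, was called (0.69 ± 0.18, adjusted p = 0.0413), and the median was 0.07. The Tk1 call was lost without any of the 3 KO libraries (adjusted p up to 0.128), any of the 3 conditioned-medium KO libraries, WT control 3 or WT control 4. The difference between the 2 lists was not tested. Of 8 CDK inhibitors, Cdkn2c, Cdkn3 and Cdkn1a were called higher and Cdkn1c lower, beside 2.82% and 2.50% of all tested genes. Cdkn2c and Cdkn3 were also called against WT control 1 and 2 alone. Cdkn2c, which encodes p18, stood at 19.3 to 22.9 CPM in WT and 27.6 to 29.0 CPM in KO (0.43 ± 0.07, adjusted p = 0.00406) and held with each library left out. Cdkn3, a phosphatase of CDKs, rose by 0.75 ± 0.16 but did not pass without KO control 1 (adjusted p = 0.0635) or KO control 3 (0.0720).

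Among ribosomal protein genes a small share was called. Of 64 cytosolic ribosomal protein genes, 8 were called higher, 5 of them both ways, and none lower, beside 2.82% higher over all tested genes. In the list 63 had a value above 0, and the median was 0.28 (0.14 with 54 above 0 against WT control 1 and 2 alone). The summed level was 28945.8, 30972.4, 24576.7 and 23707.1 CPM in WT control 1 to 4 and 31881.1, 32631.4 and 32464.0 CPM in KO. WT control 3 and 4 were the lowest, and WT control 2 came within a few percent of KO control 1. Rps16, a small subunit protein, stood at 304.0, 346.7, 290.2 and 296.8 CPM in WT and 413.4, 429.0 and 398.4 CPM in KO (0.42 ± 0.08, adjusted p = 0.00746) and was the only 1 of the 8 to hold with each library left out. The count was 28 without WT control 2, 2 without KO control 1, 1 without KO control 2, 4 without KO control 3 and 3 without WT control 3 or WT control 4. It was 17 with library totals alone as the scaling, 21 with a term for the library batch, and 2 with the most-counted exon alone. Of 48 nuclear genes of oxidative phosphorylation 4 were called higher, 1 of them also against WT control 1 and 2 alone, beside 2.82% and 1.46% of all tested genes, with a median of 0.16. None of the 4 held with each library left out, and the count in those fits ran from 0 to 9.

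**Figure D5:**
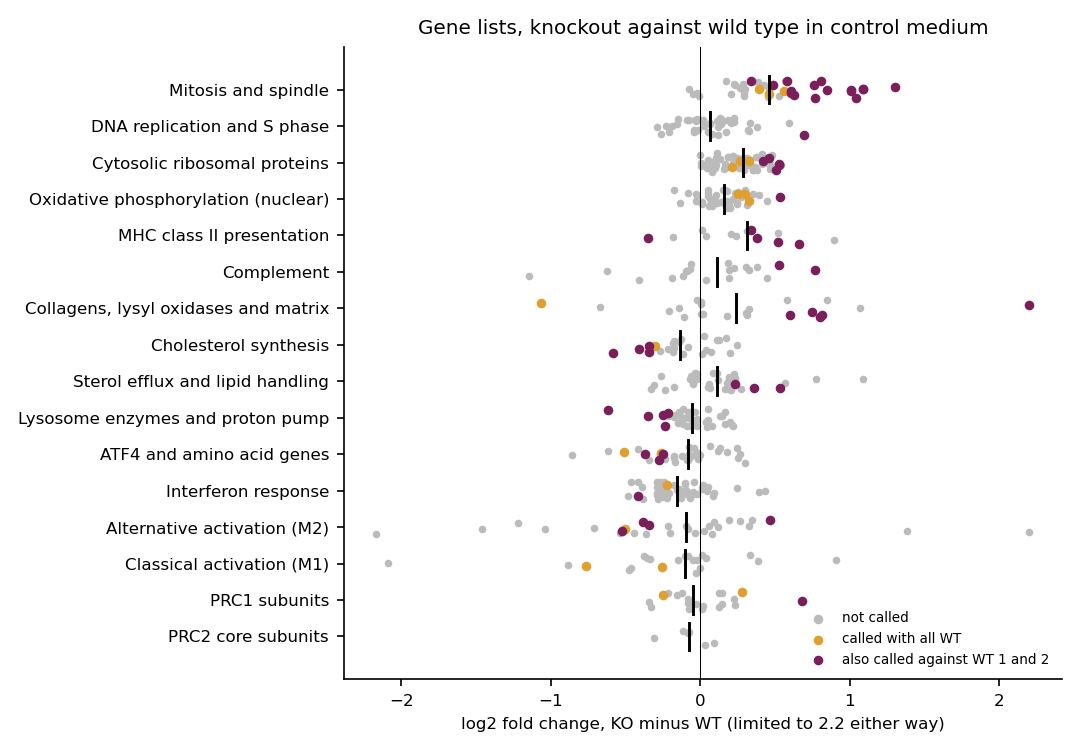
Log2 fold change of KO against WT (x axis, limited to 2.2 either way) for every tested member of 16 gene lists, with the list median as a black bar, grey for genes not called, orange for those called with all WT libraries and purple for those called both ways. The medians run from -0.15 for the interferon list to 0.46 for the mitosis list, and grey points make up most of each list other than mitosis.

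Genes of antigen presentation and of complement rose in part. Of 13 tested MHC class II presentation genes, H2-Ab1, H2-Eb1, H2-DMb1 and Cd74 were called higher and Ctss lower, all 5 also against WT control 1 and 2 alone, with a median of 0.31. This stood beside 2.82% higher and 2.50% lower over all tested genes, and 11 of the 13 values were above 0. The summed level of the list, which also holds Ctss, was lower in every KO library (9714.6 to 10074.0 CPM) than in any WT library (10776.0 to 12660.9 CPM). H2-Ab1, the class II beta chain (chr17:34257689-34269419), stood at 70.1, 81.3, 75.4 and 67.5 CPM in WT and 122.8, 121.6 and 104.3 CPM in KO (0.66 ± 0.08, adjusted p = 0.000371). H2-Eb1, the other beta chain, stood at 46.2 to 61.0 CPM in WT and 68.8 to 81.7 CPM in KO (0.52 ± 0.09, adjusted p = 0.00589). Both were higher in every KO library and held with each library left out. The invariant chain Cd74 stood at 453.6 to 540.3 CPM in WT and 580.2 to 675.1 CPM in KO (0.34 ± 0.07, adjusted p = 0.0150). Without KO control 1 neither Cd74 nor H2-DMb1, a peptide-loading chain, passed (adjusted p = 0.0588 and 0.0771), nor did they without KO control 2 (0.0960 and 0.0890). Of the 4 higher genes 3 lie in 1 stretch of chr17 (33875659 to 34588503) with Kifc1 and Notch4, where 5 of 32 tested genes were called higher both ways and none lower. The share over all tested genes was 1.46%. The stretch was drawn from genes called both ways that lay within 500 kb of the next, so its own share is high by construction.

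C1qa and C1qb, chains of the first complement component that macrophages make, were the 2 called among 20 complement genes, beside 5.32% of all tested genes. Against WT control 1 and 2 alone 4 of the list were called higher and 1 lower. C1qa stood at 63.2, 74.8, 77.8 and 76.0 CPM in WT and 125.6, 124.0 and 123.8 CPM in KO (0.77 ± 0.09, adjusted p = 0.000273). C1qb stood at 644.0, 725.5, 595.9 and 601.2 CPM in WT and 876.2, 985.7 and 908.2 CPM in KO (0.53 ± 0.06, adjusted p = 0.000333). The 3 KO libraries were nearly equal for C1qa, above all WT libraries, and both genes held with each library left out.

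Among lysosomal genes the called members were lower. Of 40 genes of lysosomal enzymes and the proton pump, Ctsk, Ctsl, Ctss, Lamp1 and Psap were called lower, also against WT control 1 and 2 alone, and none higher, beside 2.50% lower over all tested genes; the list median was -0.06. Psap, the precursor of the saposins that help break down sphingolipids, stood at 20407.9, 21161.3, 20866.2 and 21376.5 CPM in WT and 17880.9, 18359.0 and 17980.2 CPM in KO (-0.21 ± 0.04, adjusted p = 0.00628). Ctsl, a cathepsin, stood at 1823.4 to 1937.8 CPM in WT and 1517.0 to 1667.5 CPM in KO (-0.25 ± 0.05, adjusted p = 0.00648). These were small shifts of abundant RNAs with no overlap, and both held with each library left out. Ctss, Lamp1 and Ctsk did not: the lower calls of the list numbered 3 without KO control 1, 2 without KO control 2, 3 without KO control 3 and 3 without WT control 3. The summed core macrophage markers, a list that holds Lyz2 and Lamp1 but not Psap or Ctsl, stood at 75965.8 to 79488.1 CPM in WT and 63276.1 to 64979.0 CPM in KO, with 3 of its 30 members called higher and 3 lower. Against WT control 1 and 2 alone 6 were called higher and 3 lower. The list did not fall as a whole, with a median of 0.03 and 19 of 30 values above 0. The 2 lysozyme genes alone summed to 20426.5 to 24933.0 CPM in WT and 10582.8 to 11176.0 CPM in KO.

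Matrix genes were led by type IV collagen. Of 22 tested collagen, lysyl oxidase and matrix genes, Col4a1, Col4a2, Col4a5, Loxl2 and Plod2 were called higher both ways, beside 1.46% of all tested genes. Lox was called lower with all WT libraries only. Col4a2 (chr8:11312805-11449287) stood at 12.3, 10.9, 12.7 and 12.9 CPM in WT and 20.0, 23.5 and 21 CPM in KO (0.82 ± 0.11, adjusted p = 0.00113). Col4a1, its head-to-head neighbour (chr8:11198423-11312826), stood at 8.07 to 9.99 CPM in WT and 13.2, 19.4 and 13 CPM in KO (0.75 ± 0.13, adjusted p = 0.00589). Col4a5 (chrX:141475385-141689234), which lies head to head with Col4a6, stood at 32.0 to 43.6 CPM in WT and 64.0 to 68.7 CPM in KO (0.80 ± 0.11, adjusted p = 0.00124). All 4 chains were thus higher in every KO library, as 2 neighbouring pairs, and held with each library left out.

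Loxl2, an enzyme that cross-links collagen, had 0, 0, 0 and 4 counts in WT control 1 to 4 and 36, 42 and 17 counts in KO control 1 to 3, and was called higher both ways (adjusted p = 0.00124). It was close to absent in WT and low in KO, at no more than 0.737 CPM. The opposite pattern was seen for Ptprd, a receptor tyrosine phosphatase, with 102 counts over the 4 WT libraries and 0 in all 3 KO libraries. Against a floor of 3 counts over the KO group, its level was at least 19.5-fold lower in KO (adjusted p = 0.00175). Summed counts of fibroblast markers were 2.84 to 4.38 CPM in WT and 3.10 to 3.55 CPM in KO, with none of the 5 tested members called, and Col1a1 and Dcn were at or near 0. Among 19 matrix proteases and inhibitors, the neighbouring genes Mmp13 and Mmp8 were called higher (0.50 ± 0.09 and 0.64 ± 0.09) and Mmp27 lower (-0.57 ± 0.10), all 3 holding with each library left out (adjusted p = 0.00664, 0.00113 and 0.00628). They encode 2 collagenases and a stromelysin-like protease on 1 stretch of chr9 (7272514 to 7581885). For comparison, 2.82% of all tested genes were called higher and 2.50% lower.

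Lipid genes were read as 2 lists, whose difference was not tested. Of 24 cholesterol synthesis genes, 5 were called lower, Sqle, Cyp51 and Msmo1 among them, and none higher, beside 2.50% lower over all tested genes. All but Msmo1 (adjusted p = 0.106) were called also against WT control 1 and 2 alone, and the median was -0.14. Sqle, squalene epoxidase, stood at 15.9, 14.9, 16.3 and 15.4 CPM in WT and 10.4, 10.8 and 10.1 CPM in KO (-0.59 ± 0.09, adjusted p = 0.00261). The WT libraries were close together and the KO libraries lay below them, and Sqle held with each library left out. The list's lower calls numbered 3 without KO control 1, 2 without KO control 2, 2 without KO control 3 and 3 without WT control 4. Of 33 genes of sterol efflux and lipid handling 3 were called higher and none lower, beside 2.82% higher over all tested genes. Against WT control 1 and 2 alone 5 were called higher and 1 lower. Abcg1, which exports cholesterol to lipoproteins, stood at 283.0 to 295.3 CPM in WT and 363.3 to 385.1 CPM in KO (0.36 ± 0.05, adjusted p = 0.00113) and held throughout. Cd36, a receptor for oxidized lipoproteins and fatty acids, stood at 371.1, 353.6, 424.2 and 468.4 CPM in WT and 571.7, 518.6 and 664.9 CPM in KO (0.53 ± 0.10, adjusted p = 0.00852), and did not pass without KO control 3 (adjusted p = 0.0574). Me1, malic enzyme, which supplies NADPH, rose by 0.75 ± 0.14 (adjusted p = 0.00719).

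Genes used to grade macrophage activation moved singly. Of 29 alternative activation (M2) genes, Folr2 was called higher and Clec10a, Tgm2, Il1rn and Vegfa lower, with a list median of -0.09. The summed level of the list was nevertheless higher in every KO library (3188.0 to 3300.6 CPM) than in any WT library (2939.0 to 3072.3 CPM). Against WT control 1 and 2 alone 3 were called higher and 3 lower. The shares over all tested genes, with all WT libraries, were 2.82% higher and 2.50% lower. Vegfa, the vascular growth factor, stood at 70.5, 71.1, 84.0 and 83.4 CPM in WT and 54.2, 54.1 and 53.4 CPM in KO (-0.52 ± 0.08, adjusted p = 0.00216). Clec10a, a galactose-binding lectin, stood at 64.4 to 73.7 CPM in WT and 51.7 to 55.9 CPM in KO (-0.35 ± 0.06, adjusted p = 0.00352). Both fell with no overlap and held with each library left out. Folr2, the folate receptor of resident macrophages, rose by 0.47 ± 0.10 (adjusted p = 0.0119) but did not pass without KO control 1 (0.0526). Of 21 classical activation (M1) genes 2 were called lower and neither of them against WT control 1 and 2 alone. Of 51 interferon response genes 2 were called lower and none higher, a share near the 2.50% lower over all tested genes, with a median of -0.15 (-0.16 against WT control 1 and 2 alone) and 10 values above 0. Of 22 Toll-like receptors and adaptors 3 were called lower, 1 of them also against WT control 1 and 2 alone, and of 29 immediate early genes none was called. No called gene of the M1, interferon and Toll-like receptor lists held with each library left out.

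Of 22 chemokine receptors, 24 chemokines and 48 cytokines and their receptors, 1, 1 and 3 were called higher and 0, 1 and 3 lower. All tested genes were called higher in 2.82% and lower in 2.50%. Against WT control 1 and 2 alone 3, 1 and 2 of the 3 lists were called higher and 1, 1 and 2 lower. Cx3cr1, the fractalkine receptor of monocytes and tissue macrophages, stood at 36.8, 28.3, 23.4 and 22.6 CPM in WT and 55.1, 48.8 and 46.0 CPM in KO (0.85 ± 0.13, adjusted p = 0.00235). It was lowest in WT control 3 and 4, and rose by 0.62 against WT control 1 and 2 alone (adjusted p = 0.00279). The chemokine Cxcl14 stood at 4.43 to 6.26 CPM in WT and 10.7 to 10.9 CPM in KO (1.04 ± 0.11, adjusted p = 0.000110). Clec7a, the beta-glucan receptor dectin-1, stood at 301.9 to 318.8 CPM in WT and 377.5 to 413.6 CPM in KO (0.35 ± 0.06, adjusted p = 0.00436). Csf2ra, a chain of the GM-CSF receptor, rose by 0.40 ± 0.07 (adjusted p = 0.00704), but not with the most-counted exon alone (0.03, adjusted p = 0.852). The 4 genes were higher in every KO library and held with each library left out. Anxa3, an annexin, stood at 197.4 to 211.4 CPM in WT and 164.7 to 174.0 CPM in KO (-0.27 ± 0.05, adjusted p = 0.00461).

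Developmental genes that PRC2 silences in many tissues were mostly unread in these cells. Of 156 developmental transcription factor genes in the table, 62 had a count in any library and 14 passed the filter on low counts. None of the 14 was called, with a median of -0.16 against all WT libraries and 0.10 against WT control 1 and 2 alone. Of 39 Hox genes 4 were tested and none was called, Hoxb3 having the smallest p (0.63 to 1.55 CPM in WT, 1.4 to 1.95 CPM in KO, adjusted p = 0.180, and 0.0209 with the most-counted exon alone). Igf2bp2, an RNA-binding protein of fetal tissues and the only 1 called of 7 tested fetal and oncofetal genes, was lower: 23.3 to 30.4 CPM in WT and 18.7 to 19.9 CPM in KO (-0.45 ± 0.08, adjusted p = 0.00404). CpG-rich promoters, with a CpG observed to expected ratio of at least 0.6 and a GC content of at least 50% over the 250 bases, were 61.3% of those of tested genes. They were 53.9% of the promoters of genes called higher both ways, 55.7% of those called lower, and 40.5% of the 37 matched promoters of genes at least 2-fold higher. These shares are descriptions.

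Markers of other cells were looked at as whole lists, beside 5.32% called over all tested genes. Of 8 tested neutrophil and granulocyte genes, Mmp8 alone was called, and the summed level of the list was 80.6 to 100.9 CPM in WT and 107.2 to 115.9 CPM in KO, while Ly6g was at or near 0. Of 4 tested erythroid and megakaryocyte genes, Epor alone was called (0.109, 0.0978, 0.121 and 0.238 CPM in WT and 0.800, 0.631 and 0.838 CPM in KO, adjusted p = 0.00901), with summed levels of 19.4 to 24.2 CPM in WT and 27.7 to 33.6 CPM in KO. Of 8 stem and progenitor genes, Cd34 and Ly6a were called higher and Kit lower, with 213.3 to 255.7 CPM in WT and 266.7 to 300.8 CPM in KO. Kit, the receptor of stem and mast cells, stood at 3.06, 1.62, 2.77 and 3.39 CPM in WT and 1.25, 0.912 and 0.883 CPM in KO (-1.42 ± 0.28, adjusted p = 0.0101), and did not pass without KO control 2 (adjusted p = 0.0636) or KO control 3 (0.0568). These 3 summed levels were higher in every KO library than in any WT library. Mast cell markers, of which Kit alone was called among 3 tested, summed to 2.48 to 3.90 CPM in WT and 1.23 to 1.89 CPM in KO. T and NK cell markers, of which Il7r alone was called (lower) among 5, summed to 354.3 to 467.7 CPM in WT and 329.3 to 352.8 CPM in KO. Both of these sums were lower in every KO library. Of 6 endothelial markers Eng was called higher and Kdr lower (247.0 to 341.7 CPM in WT, 274.7 to 316.9 CPM in KO), of 15 monocyte markers Cx3cr1 higher (820.3 to 1088.3 and 981.4 to 1034.8 CPM), and of 8 osteoclast markers Ctsk lower (260.8 to 333.2 and 246.2 to 265.4 CPM), with overlapping sums in all 3 lists. Their part in the other differences was not tested. None of the 3 tested B cell, 12 dendritic cell, 5 fibroblast and 1 adipocyte markers was called.

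Of the 708 genes, 364 were called with all WT libraries and not against WT control 1 and 2 alone. That second fit also left out the WT conditioned-medium libraries 3 and 4, so it held fewer libraries. All 708 genes kept their sign in it, which the lack of overlap largely fixed beforehand. With KO control 1, 2 or 3 left out instead, 271, 220 and 237 of the 708 were still called. Against the deeper WT libraries 3 and 4 alone, in a fit with as many libraries as that with WT 1 and 2, 703 of the 708 were still called. Whether the 364 calls were lost through the levels in WT control 3 and 4 or through fewer libraries was not tested. The largest by the naming rule were Slfn4, Abhd6, Pcsk1 and Srpk3. Slfn4, another Schlafen gene, stood at 2.19, 2.62, 5.41 and 5.71 CPM in WT control 1 to 4 and 1.13, 2.05 and 1.09 CPM in KO (-1.49 ± 0.34, adjusted p = 0.0216; -0.75 and adjusted p = 0.120 against WT control 1 and 2 alone). Its level in WT control 3 and 4 was well above that in WT control 1 and 2. Abhd6, a lipase that breaks down monoacylglycerol, stood at 1.85, 2.27, 0.838 and 1.27 CPM in WT and 3.15, 3.54 and 3.6 CPM in KO, and went from 1.16 to 0.74 (adjusted p = 0.0171 and 0.0546). Pcsk1 and Srpk3 went from 1.11 and 1.06 to 0.81 and 0.74 (adjusted p = 0.0511 and 0.187 against WT control 1 and 2 alone).

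In conditioned medium, with other libraries of both genotypes, 611 genes were called (4.59%), 413 higher and 198 lower. Of the 344 genes called both ways in control medium, 315 had the same sign in conditioned medium and 145 were called there in the same direction, which is 42.2% of the 344 and 23.7% of the 611. The share of same-sign genes over all tested genes was not counted. Both comparisons hold WT libraries numbered 3 and 4 of greater depth. Xlr (2.91), Col4a6 (1.46), Pgm5 (2.00), Bmpr1a (1.55), Hpgd (1.13), Epn2 (-1.74), Padi4 (-0.76) and Lyz2 (-1.11) were called in conditioned medium too, with adjusted p of at most 0.00151.

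The test of the difference between the media called 0 of 13311 genes (edgeR, smallest adjusted p = 0.110), with 1050 at an unadjusted p below 0.05. DESeq2 called 84 and limma-voom 27, and 11 were called with WT libraries 1 and 2 alone. Values set side by side differed for some groups without passing that test. H2-Ab1 went from 0.66 in control medium to 0.06 in conditioned medium (interaction adjusted p = 0.149), Col4a2 from 0.82 to 0.01 (0.149), Igf2bp2 from -0.45 to 0.21 (0.110), and Tomm7, a mitochondrial import subunit whose control-medium call was lost without KO control 3 (adjusted p = 0.0559), from 0.58 to -0.28 (0.148). Agbl5, a tubulin deglutamylase that did not pass in control medium (0.33, adjusted p = 0.0725), was at -0.58 in conditioned medium (interaction adjusted p = 0.110). Of the 16 mitosis genes called both ways, 14 were called higher in conditioned medium as well, and of the 5 ribosomal protein genes none was. Over all 13311 tested genes 413 were called higher there.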

How the data were processed

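The authors deposited 1 table of RNA-seq read counts per exon entry for the 14 libraries; per the submitters' processing notes reads were aligned with HISAT2 to mm10. The counting tool and its strand setting are not given in the sources used here, so overlapping and antisense genes cannot be separated. Of 427386 exon entries, 196941 repeated another entry of the same gene (48.6% of all counts) and were kept once; the rest were summed per gene symbol. Entries that name no gene numbered 0, and columns of no sample numbered 0.

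Counts were analysed with edgeR 4.0.16 (R 4.3.3): filterByExpr (minimum count 10, minimum total 15), TMM scaling, 1 mean for each of the 4 groups of genotype and medium, the quasi-likelihood test, and Benjamini-Hochberg adjustment over all 13311 tested genes, with a threshold of 0.05. CPM are scaled by TMM, and errors of log2 fold changes are standard errors derived from the fit. Groups and replicate numbers came from the labels. Figures were drawn with matplotlib 3.10.9. Positions are from GENCODE vM21 and promoters from RefSeq (GRCm38.p6). The code was tested on simulated data.

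The genes named are Ezh2, Lyz2, the Y-linked genes, the 12 largest changes each way among genes of at least 2 CPM called with both choices of WT libraries and not overlapping, the 4 highest-level called genes each way, up to 4 members of each list by p, the 4 largest changes called with all WT libraries only, genes at 0 counts in 1 genotype, and the 3 smallest interaction p each way, leaving out predicted and clone symbols. Called members of a list with at most 5 of them are also named, and were chosen after their values were seen. The members and lists were chosen with earlier results of these data known. Alternatives were WT libraries 1 and 2 or 3 and 4 alone, a batch term, other scalings, filters, exon summing and thresholds, a replicate block, DESeq2 1.42.0, limma-voom (limma 3.58.1), and each library left out. Some genes that met the naming rule are not reported here.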

Additional observations from a re-analysis of the deposited data

Results flagged for a closer look

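In the 4 WT control libraries, the level of 6 of the named genes had 1 sample far from the others by Dixon's test, which by chance marks about 1 in 20 groups; 100 genes were looked at. Epn2 was high in WT control 2 (3.52 CPM), Loxl2 was read in WT control 4 alone (0.0476 CPM), and Epor was high in WT control 4 (0.238 CPM). Mmp13 was high in WT control 1 (42.6 CPM). In WT control 2, Ufc1, a ubiquitin-like conjugating enzyme, stood at 84.3 CPM and the transcription factor Atf4 at 53.5 CPM.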

How the results depend on the processing

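Genes higher and lower, 375 and 333 with all libraries, numbered 294 and 220 against WT 1 and 2, 2623 and 2623 against WT 3 and 4, 525 and 514 with a batch term, 605 and 182 with library totals, 304 and 270 without a filter, 179 and 104 from control-medium libraries only, 230 and 154 from the most-counted exon, 708 and 793 with DESeq2, 2436 and 2321 with limma-voom, 111 and 63 at adjusted p below 0.01, and 78 and 19 at 2-fold. Leaving out 1 library gave 139 to 839 higher and 85 to 930 lower. When 1 more library was left out beside WT 3 and 4, chosen after seeing the data, they numbered 91 to 194 higher and 51 to 118 lower: 171 and 118 without KO control 1, 188 and 109 without KO control 2, 194 and 109 without KO control 3, 91 and 51 without WT control 1, and 179 and 117 without WT control 2. The difference between media, 0 genes, became 11 against WT 1 and 2, 54 against WT 3 and 4, 164 with a batch term, 84 with DESeq2, 27 with limma-voom, 0 to 2 with 1 library left out, and 2, 3, 10, 8 and 5 in those 5 added fits. Ezh1 (0.0) and Ufc1 (-0.07) changed sign with the most-counted exon. The causes were not tested. Over the named genes, and leaving aside the counts of calls, 2732 values kept direction and side, 433 lost and 26 gained a call. Deviations of same-numbered KO and WT libraries from their group means had r = -0.104, 0.117 and -0.018. The WT deviations hold the gap between WT control 1 and 2 and WT control 3 and 4, so these values cannot show whether the numbers pair libraries. With replicate number as a block 443 genes were higher and 383 lower, and 610 of the 708 were kept. Genes under about 1 CPM rest on few counts, and no interval for counting error was added to the fit.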

Other observations

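Genes of the amino acid response controlled by the transcription factor Atf4 were lower where they were called. Of 33 tested, 5 were called lower and none higher (Atf4, Mthfd2, Aars, Cars and Nupr1), beside 2.50% lower over all tested genes. Of the 5, 3 were also called against WT control 1 and 2 alone, and the list median was -0.08. Atf4 stood at 50.7, 53.5, 51.2 and 51.2 CPM in WT control 1 to 4 and 43.8, 43.3 and 43.1 CPM in KO control 1 to 3 (-0.25, adjusted p = 0.0222). Aars, the alanine tRNA synthetase, stood at 62.3 to 66.6 CPM in WT and 52.5 to 54.7 CPM in KO (-0.28, adjusted p = 0.0150). No KO library overlapped WT in either gene, but neither call held with each library left out: Atf4 did not pass without KO control 1, 2 or 3 or WT control 3 (adjusted p up to 0.0885), and Aars did not without KO control 2 or 3 (up to 0.0710).

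Among the most abundant called genes was Mpeg1, the pore-forming protein perforin-2. Mpeg1 stood at 6806.4 to 7312.6 CPM in WT and 5973.8 to 6155.9 CPM in KO (-0.23, adjusted p = 0.0412), and did not pass without any 1 of the 3 KO control libraries, KO CM 1, KO CM 2, or WT control 1, 3 or 4 (up to 0.158). Axl, a receptor for dying cells, stood at 174.2 to 198.7 CPM in WT and 228.1 to 249.9 CPM in KO (0.35, adjusted p = 0.00916), and did not pass without KO control 2 (0.0623). Of the 4 Y-linked genes, Ddx3y was called lower with all WT libraries (-0.36, adjusted p = 0.0216) and not against WT control 1 and 2 alone (0.110), and Eif2s3y passed against WT control 1 and 2 alone (0.36, adjusted p = 0.0197) but not with all WT libraries (0.27, adjusted p = 0.0585).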
